A study of Mus musculus with 4 samples.

Results

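The proapoptotic members of the BCL2 family were followed in mouse B-cell lymphoma lines and in B220+ spleen cells. The members were Bax, Bak1, Bcl2l11, Bbc3, Bid, Pmaip1, Bmf, Bad, Bik and Hrk. They were found by name: each probe whose gene name on the array was one of these 10 was kept, whatever its signal. This gave 16 of the 41174 probes that are not controls, or 10 of 27745 gene names. The lymphoma group held 2 lines, 1 array each, grown out of B-cell lymphomas of mice that carry a dopamine receptor 3 transgene. The splenocyte group held 2 samples of B220+ splenocytes from C57BL/6N mice, 1 array each. All 4 samples are labelled strain C57BL/6N and female. The promoter of the transgene, the ages, any pooling of animals and any treatment are not given in the sources used here. Lymphoma against normal cells, cell line against selected spleen cells, and transgenic against other mice differ all at once and cannot be told apart here.

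BCL2 family proteins decide whether the outer membrane of the mitochondria stays closed. BAX and BAK open it, which lets cytochrome c out and starts the caspases. Prosurvival proteins such as BCL2, BCL-XL and MCL1 hold BAX and BAK back. The BH3-only proteins answer to stress: BIM (Bcl2l11), PUMA (Bbc3) and the cleaved form of BID bind the whole prosurvival set and can also engage BAX and BAK, whereas NOXA (Pmaip1), BMF, BAD, BIK and HRK each bind some of the prosurvival proteins. In mice, BIM is needed for the removal of self-reactive lymphocytes, and its loss speeds Myc-driven B-cell lymphoma.

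Promoters of Bcl2l11, Bbc3 and Bax are shown because their genes carried called increases and their windows hold a motif of a factor family known to control the pathway. They are RefSeq windows of GRCm38.p6, from 250 bases before the annotated start to 50 bases after it, 5′ to 3′ on the strand of the gene. Capitals mark the forkhead letters GTAAACA or their reverse complement in Bcl2l11 (chr2:128125788-128126087, plus strand) and Bbc3 (chr7:16310011-16310310, plus strand). In Bax (chr7:45466849-45467148, minus strand) they mark a p53 half-site and, nearer the start, 2 copies of the E-box CACGTG.
Bcl2l11: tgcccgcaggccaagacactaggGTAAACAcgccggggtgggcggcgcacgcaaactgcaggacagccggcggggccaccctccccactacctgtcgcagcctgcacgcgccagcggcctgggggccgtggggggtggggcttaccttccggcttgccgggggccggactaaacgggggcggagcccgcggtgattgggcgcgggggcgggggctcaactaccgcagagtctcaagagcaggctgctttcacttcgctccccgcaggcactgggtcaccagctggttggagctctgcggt
Bbc3: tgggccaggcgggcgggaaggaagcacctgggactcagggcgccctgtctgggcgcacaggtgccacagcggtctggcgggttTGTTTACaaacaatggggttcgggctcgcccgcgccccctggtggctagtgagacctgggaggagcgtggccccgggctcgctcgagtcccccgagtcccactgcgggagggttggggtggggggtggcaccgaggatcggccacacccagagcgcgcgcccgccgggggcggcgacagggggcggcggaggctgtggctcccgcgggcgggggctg
Bax: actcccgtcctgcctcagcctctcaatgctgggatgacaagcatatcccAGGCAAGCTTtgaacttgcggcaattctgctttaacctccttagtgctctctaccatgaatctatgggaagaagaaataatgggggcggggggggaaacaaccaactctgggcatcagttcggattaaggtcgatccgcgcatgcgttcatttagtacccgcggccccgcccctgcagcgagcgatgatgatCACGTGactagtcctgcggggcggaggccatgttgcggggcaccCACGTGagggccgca

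The forkhead match began 227 bases before the start in Bcl2l11 and 167 bases before it in Bbc3, each in 1 of the gene's windows. Bax held the p53 half-site 201 bases before the start and E-boxes 9 bases before and 35 bases after it. RefSeq windows were found for 8 of the 10 members, 14 windows in all. Some genes had several windows, and 2 of the 3 Bbc3 windows overlap, so GC boxes they share count in both. On either strand, the forkhead letters lay in 2 of these 14 windows, against 3.65% of all 32851 windows of this length. The E-box lay in 2 windows against 7.15%, the p53 half-site in 2 (Bax and Bmf) against 8.36%, and the GC box GGGCGG in 10 windows of 7 genes against 35.7%. None of these matches overlapped another kind. Matches of this kind describe letters only, and binding was not measured.

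Signals are given relative to each array: a relative signal of 1 equals that array's 75th percentile over all non-control spots. Differences are log2 values, lymphoma lines minus splenocytes, with the standard error (SE) of limma's fit over 27405 probes and Benjamini-Hochberg adjusted p-values over all of them; calls use an adjusted p under 0.05. Of the 16 member probes, 14 were well above background on all 4 arrays and 13 entered the fit. Calls were made for 9 of the 13 (69.2%), against 64.8% of all tested probes. By direction, 6 members' probes were higher in the lines (46.2%), against 32.3% of all probes, and 3 were lower (23.1%), against 32.5%. Since nearly 2 in 3 tested probes differed between the groups, the count of member calls lies near the background. The values of the lines and the splenocytes did not overlap for 11 of the 13 (84.6%), against 85.6% of all probes. Both lines were above both splenocyte samples for 6 of the 13 (46.2%), against 42.7%, and below both for 5 (38.5%), against 42.9%. The members' median difference was 0.17, beside -0.0090 over all probes. Taking the brightest tested probe of each gene, 6 of 8 genes were called, against 63.2% of 18317 genes. Of these, 4 were higher, against 30.6% of genes, and 2 were lower, against 32.6%. The lower ones were Pmaip1 and Bad, the second through a probe whose transcript is not settled. With the mean of a gene's tested probes, 5 of 8 were called, 4 higher and 1 lower.

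Array facts bear on every value. Between 25042 and 27421 probes were well above background on an array, no spot was saturated, and all arrays lay on 1 slide with 1 scan time. Before scaling, splenocyte sample 2 was the dimmest array. Its 75th percentile of processed signal was 514, against 1078 in splenocyte sample 1 and 1122 and 1315 in the lines. Its lowest relative signal well above background was a log2 of -6.10, against -7.06 to -6.92 on the other arrays. The lines correlated with each other at r = 0.991 and the splenocyte samples at r = 0.992 over probes, against 0.823 to 0.838 between groups. Only 2 arrays a group limit the precision. Nothing in the labels says that the splenocyte samples came from separate animals. The titles of the lines number them and do not say whether they came from separate mice. The p-values set each group difference against the spread within these groups, and that spread may be technical.

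**Figure D1:**
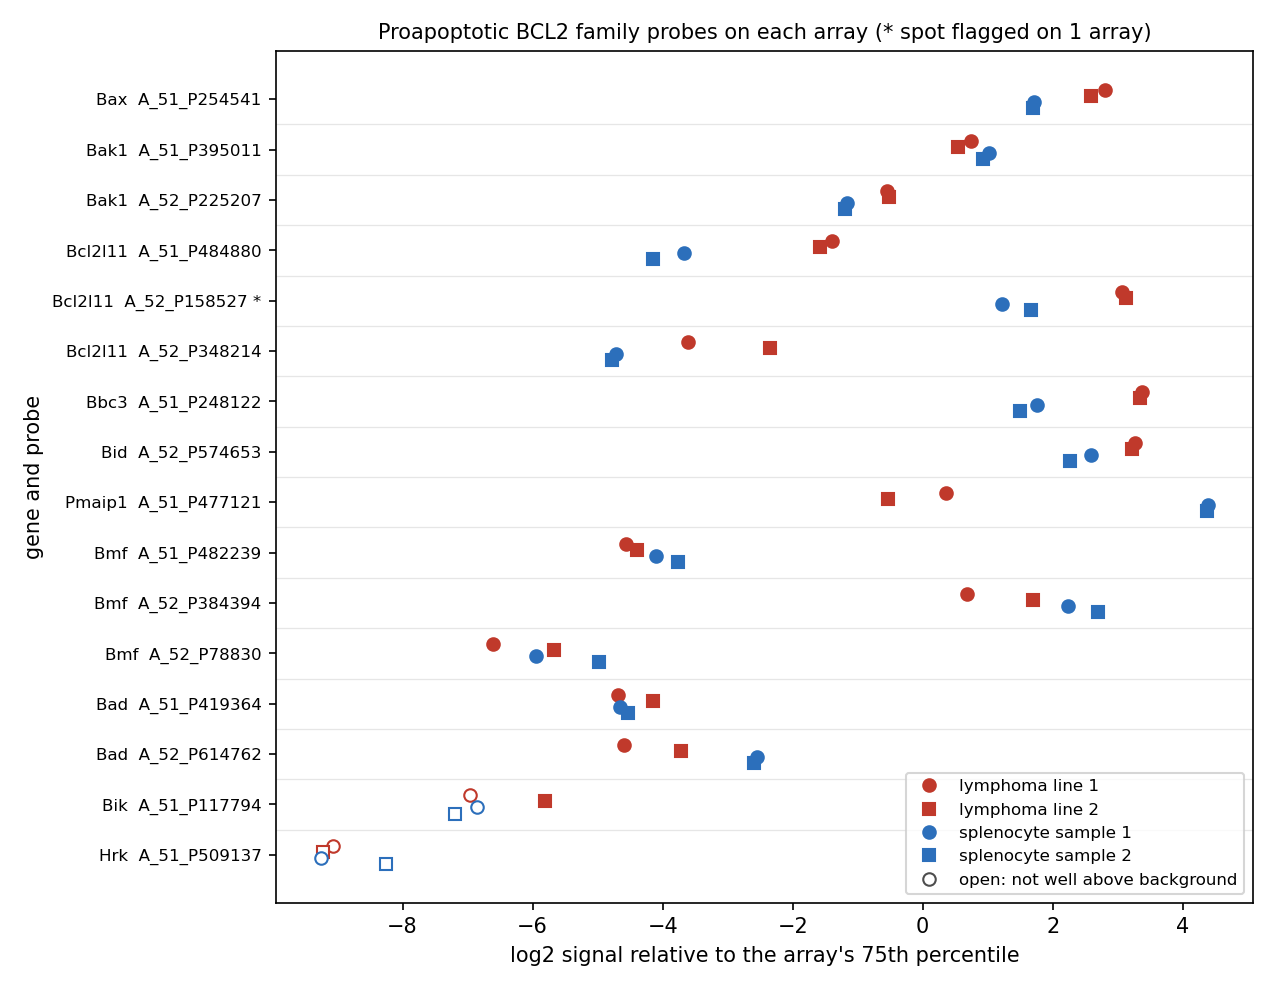
Log2 signal of each member probe relative to its array's 75th percentile (x axis) on the 2 lymphoma lines (red) and the 2 splenocyte samples (blue); open symbols were not well above background. Bax, Bcl2l11, Bbc3 and Bid lie to the right in both lines, Pmaip1 lies far to the left in both, and Hrk is open on all 4 arrays.

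The effectors were read by 3 probes. Bax, the pore-forming effector, was printed as 10 repeated spots of probe A_51_P254541 (mm8 chr7:45334141-45334296, minus strand), of which 9 were used because 1 was marked an outlier on line 2. Its relative signal was 6.99 and 6.04 in lymphoma lines 1 and 2, against 3.26 and 3.22 in splenocyte samples 1 and 2. Both lines stood above both splenocyte samples, and the splenocyte samples were nearly level. Bax rose 2.005-fold in the lines (log2 1.003 ± 0.16 SE, n = 2 each, limma adjusted p = 0.00568, 95% interval 0.59 to 1.42). Among repeated spots of 1 array the signal varied by 2.82% and 1.97% (coefficient of variation) in the lines and 2.86% and 2.62% in the splenocyte samples. That spot error is far smaller than the difference, but it measures printing and scanning and not the spread of cells.

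**Figure D2:**
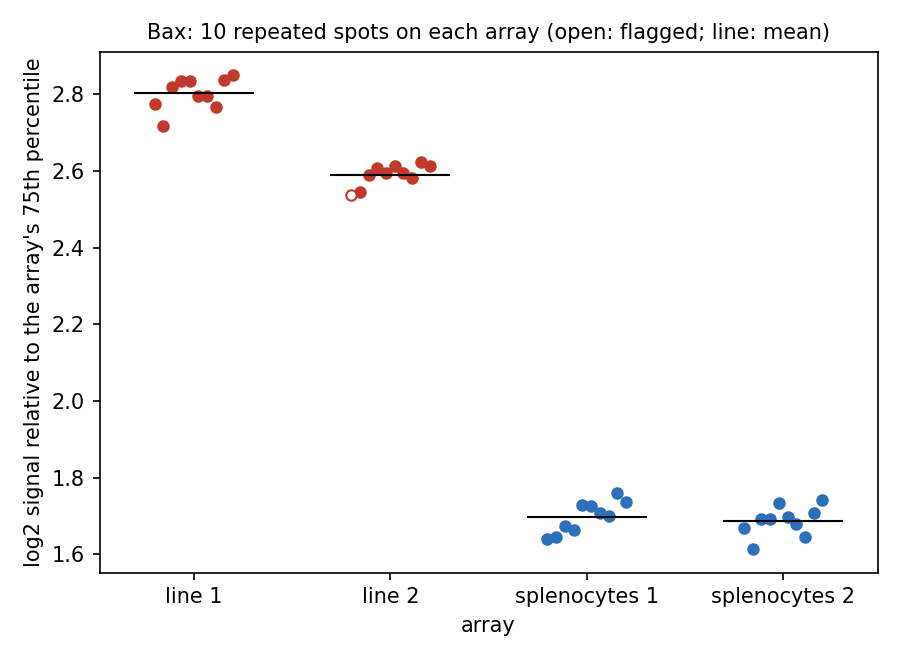
Log2 signal of each of the 10 Bax spots relative to the array's 75th percentile (y axis) on each array (x axis); lines mark the mean and the open point is the spot left out. Every spot of both lines lies above every spot of both splenocyte samples.

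The other effector, Bak1, gave different answers at its 2 probes, which lie about a kilobase apart on the minus strand. Probe A_52_P225207 (mm8 chr17:26748876-26748935) read 0.681 and 0.700 in the lines, against 0.446 and 0.438 in the splenocyte samples. It rose 1.56-fold (0.64 ± 0.14 SE, limma adjusted p = 0.0156). The brighter probe A_51_P395011 (mm8 chr17:26747611-26747670) read 1.68 and 1.46 in the lines and 2.03 and 1.90 in the splenocyte samples. Here both lines stood below both splenocyte samples, and the difference of -0.33 ± 0.16 SE was not called (limma adjusted p = 0.132, 95% interval -0.75 to 0.09). With arrays centred on their median the difference of the brighter probe was 0.080. The increase at A_52_P225207 was not called without splenocyte replicate 1 (adjusted p = 0.0860) or 2 (adjusted p = 0.0963). No direction is therefore given for Bak1 as a gene.

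The BH3-only genes that bind the whole prosurvival set were higher in the lines. Bcl2l11, which encodes BIM, was read by 3 probes on the plus strand. Probe A_51_P484880 (mm8 chr2:127838598-127849693, a placement of 11096 bases and so split along the genome) read 0.381 and 0.334 in the lines, against 0.0788 and 0.0561 in the splenocyte samples. Both lines stood far above both splenocyte samples. It rose 5.36-fold (2.42 ± 0.23 SE, limma adjusted p = 0.00144, 95% interval 1.82 to 3.03). With normexp background correction, which here adds an offset of 50 to each signal, the difference was 1.40 and still called.

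The brightest Bcl2l11 probe, A_52_P158527 (mm8 chr2:127853756-127853815), had its only spot marked non-uniform on splenocyte sample 1 and so was not among the 13 probes. With all spots kept it read 8.37 and 8.75 in the lines, against 2.33 and 3.18 in the splenocyte samples. In that fit it rose 3.14-fold (1.65 ± 0.21 SE, limma adjusted p = 0.00327). That fit called 64.4% of all probes, and 32.1% of all probes were called higher. The dimmest probe, A_52_P348214 (mm8 chr2:127820441-127821122), lies upstream of the others and read 0.0816 and 0.197 in the lines, against 0.0378 and 0.0363 in the splenocyte samples. All 3 probes were thus higher in both lines. The upstream probe rose 3.42-fold (1.77 ± 0.45 SE, limma adjusted p = 0.0246), and line 2 read 2.41-fold above line 1, a gap that 3.48% of tested probes exceeded. Its processed signals were 91.6 and 259 in the lines and 40.8 and 18.7 in the splenocyte samples, beside the normexp offset of 50. Its difference was 0.54 and not called with normexp (adjusted p = 0.224). It was also not called without splenocyte replicate 1 (adjusted p = 0.0713) or 2 (adjusted p = 0.0794).

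Bbc3, which encodes PUMA, a direct target of p53, had 1 probe, A_51_P248122 (mm8 chr7:15476576-15476635, plus strand). It read 10.4 and 10.2 in the lines, against 3.40 and 2.81 in the splenocyte samples. The lines were nearly level with each other and well above both splenocyte samples. Bbc3 rose 3.33-fold (1.73 ± 0.17 SE, limma adjusted p = 0.00156, 95% interval 1.29 to 2.18).

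Bid, whose protein is cut by caspase-8 into its active form, had 1 probe, A_52_P574653 (mm8 chr6:120859065-120859124, minus strand). It read 9.59 and 9.27 in the lines, against 6.04 and 4.80 in the splenocyte samples. Both lines were again above both splenocyte samples, by a smaller step. Bid rose 1.75-fold (0.81 ± 0.18 SE, limma adjusted p = 0.0165, 95% interval 0.33 to 1.29). The call was lost when lymphoma replicate 1 was left out (adjusted p = 0.0553). It was also lost when splenocyte replicate 2 was left out, where the difference was 0.64 (adjusted p = 0.0931).

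The 3 member probes called lower belonged to Pmaip1, Bmf and Bad, which are among the more selective BH3-only genes. Other probes of Bmf and Bad were not called, and Bik and Hrk were not tested. Pmaip1, which encodes NOXA, the partner that binds MCL1 and A1, had 1 probe on chromosome 18, A_51_P477121. It read 1.28 and 0.688 in the lines, against 21.0 and 20.8 in the splenocyte samples. The splenocyte samples were level, while line 1 read 1.86-fold above line 2, and both lines were far below. Pmaip1 fell 22.2-fold in the lines (-4.47 ± 0.33 SE, limma adjusted p = 0.000854, 95% interval -5.36 to -3.58). Only 3.52% of tested probes had a lower difference.

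Bmf, whose protein is held on the dynein light chain DYNLL2 in healthy cells, was read by 3 probes on the minus strand of chromosome 2. The brightest, A_52_P384394 (mm8 chr2:118220224-118220283), read 1.60 and 3.26 in the lines, against 4.69 and 6.47 in the splenocyte samples. It fell 2.41-fold (-1.27 ± 0.40 SE, limma adjusted p = 0.0468), close to the threshold, and line 2 read 2.03-fold above line 1. Both lines were below both splenocyte samples, but the call depended on the arrays used. It was not called when splenocyte replicate 1 (adjusted p = 0.0724), splenocyte replicate 2 (0.162) or lymphoma replicate 1 (0.0917) was left out. With arrays centred on their median the difference was -0.86 (adjusted p = 0.0842).

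Neither dim Bmf probe was called. A_51_P482239 (mm8 chr2:118224017-118224076) read 0.0421 and 0.0473 in the lines, against 0.0580 and 0.0739 in the splenocyte samples (-0.55 ± 0.19 SE, limma adjusted p = 0.0587). A_52_P78830 (mm8 chr2:118222682-118222741) read 0.0103 and 0.0196 in the lines, against 0.0162 and 0.0317 in the splenocyte samples, and the groups overlapped (-0.67 ± 0.47 SE, limma adjusted p = 0.269). All 3 differences were below 0, with 1 of 3 called. In the fit with 1 probe per gene, the brightest, Bmf was not called (limma adjusted p = 0.0501).

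Bad, whose protein binds BCL2, BCL-XL and BCL-W and is kept inactive by 14-3-3 proteins when phosphorylated, was read by 2 dim probes that differed. Probe A_51_P419364 (mm8 chr19:7009172-7009231, plus strand) read 0.0388 and 0.0564 in the lines, against 0.0398 and 0.0433 in the splenocyte samples. The groups overlapped, and the difference was 0.17 ± 0.23 SE (limma adjusted p = 0.547, 95% interval -0.45 to 0.79). It was -0.30 with normexp and -0.10 without lymphoma replicate 2. The other probe, A_52_P614762 (mm8 chr19:7018148-7018207), read 0.0414 and 0.0756 in the lines, against 0.171 and 0.166 in the splenocyte samples. It fell 3.01-fold (-1.59 ± 0.32 SE, limma adjusted p = 0.0128). The deposited annotation names it Bad after a cDNA clone but places it on the minus strand, opposite to the first probe, so which transcript it reads is not settled here. A decrease of Bad as a gene is therefore not stated.

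Bik and Hrk gave no difference that could be tested. Bik, a BH3-only protein of the endoplasmic reticulum (A_51_P117794, mm8 chr15:83371384-83371443, plus strand), was well above background only on line 2. Its relative signal was 0.00798 and 0.0178 in the lines, against 0.00860 and 0.00683 in the splenocyte samples. Hrk, best known from neurons (A_51_P509137, mm8 chr5:118445659-118445718, plus strand), was not well above background on any array, at relative signals of 0.00186 and 0.00167 in the lines and 0.00163 and 0.00327 in the splenocyte samples. Signals not well above background set only an upper bound and have no order among themselves.

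**Figure D3:**
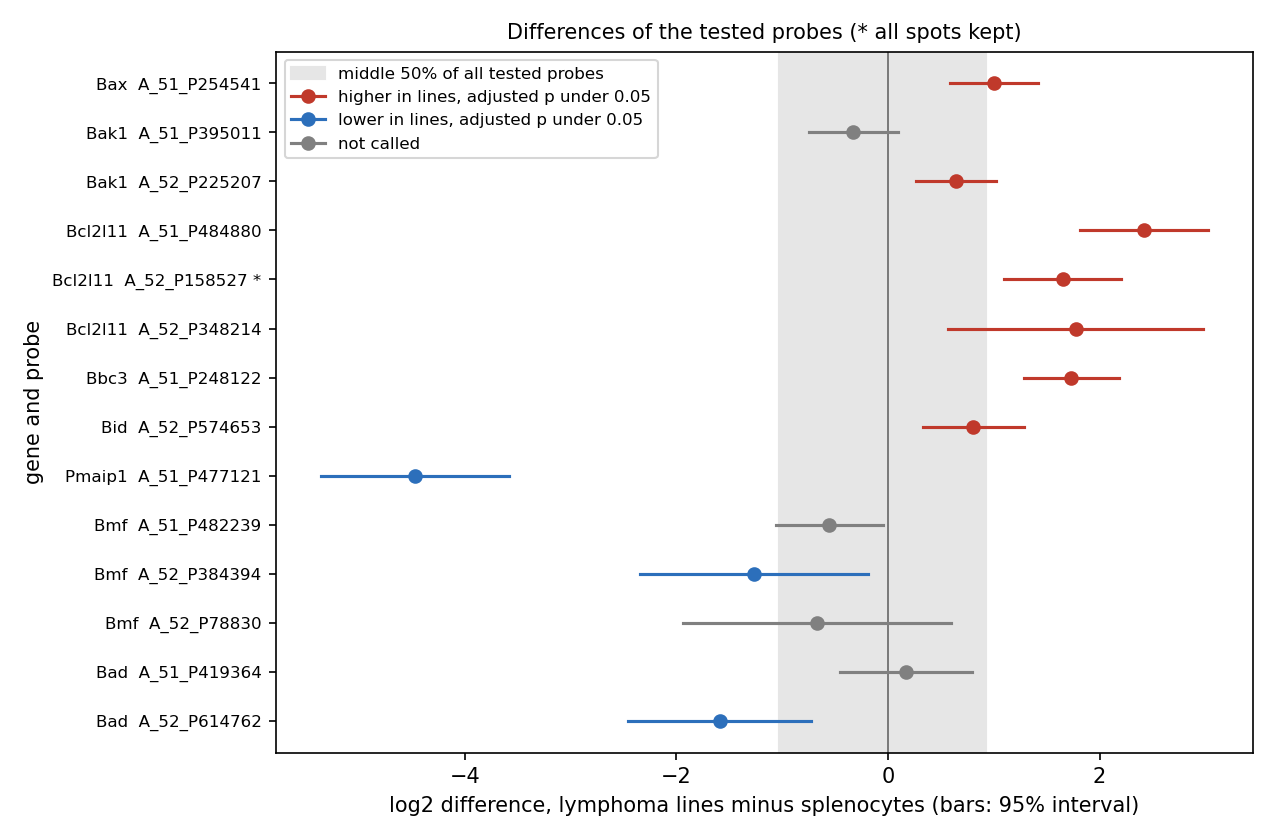
Log2 difference, lymphoma lines minus splenocytes (x axis), of the 13 probes in the fit and of the Bcl2l11 probe tested with all spots kept (asterisk); bars are 95% intervals and the grey band holds the middle 50% of all tested probes. Bcl2l11 and Bbc3 lie to the right of the band, Pmaip1 lies far to its left, and the Bid and Bak1 probes lie within it.

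Disagreement between probes of 1 gene was tested directly, a test added after the values had been seen. A limma fit took the difference between the brightest of a gene's probes in the reported fit and each other probe in that fit. Bcl2l11 A_52_P158527 was outside that fit and was not compared. For Bad, probe A_52_P614762 minus A_51_P419364 was 0.095 and 0.42 in the lines, against 2.10 and 1.93 in the splenocyte samples. That gap was smaller in the lines by 1.76 ± 0.17 SE (limma adjusted p = 0.00634). For Bak1, probe A_51_P395011 minus A_52_P225207 was 1.30 and 1.06 in the lines, against 2.19 and 2.12 in the splenocyte samples, smaller in the lines by 0.97 ± 0.13 SE (limma adjusted p = 0.0116). The 2 probes of each of these genes thus changed unequally. Such unequal change was common on the array: 50.2% of 9088 probe pairs were called. Of the 5 member pairs none had both probes called in opposite directions, against 5.63% of all pairs, a share too low for 5 pairs to show a difference. For Bcl2l11 (A_51_P484880 minus A_52_P348214) and Bmf the difference between probes was not called. The limma adjusted p was 0.404 for Bcl2l11, and 0.157 and 0.0915 for Bmf.

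**Figure D4:**
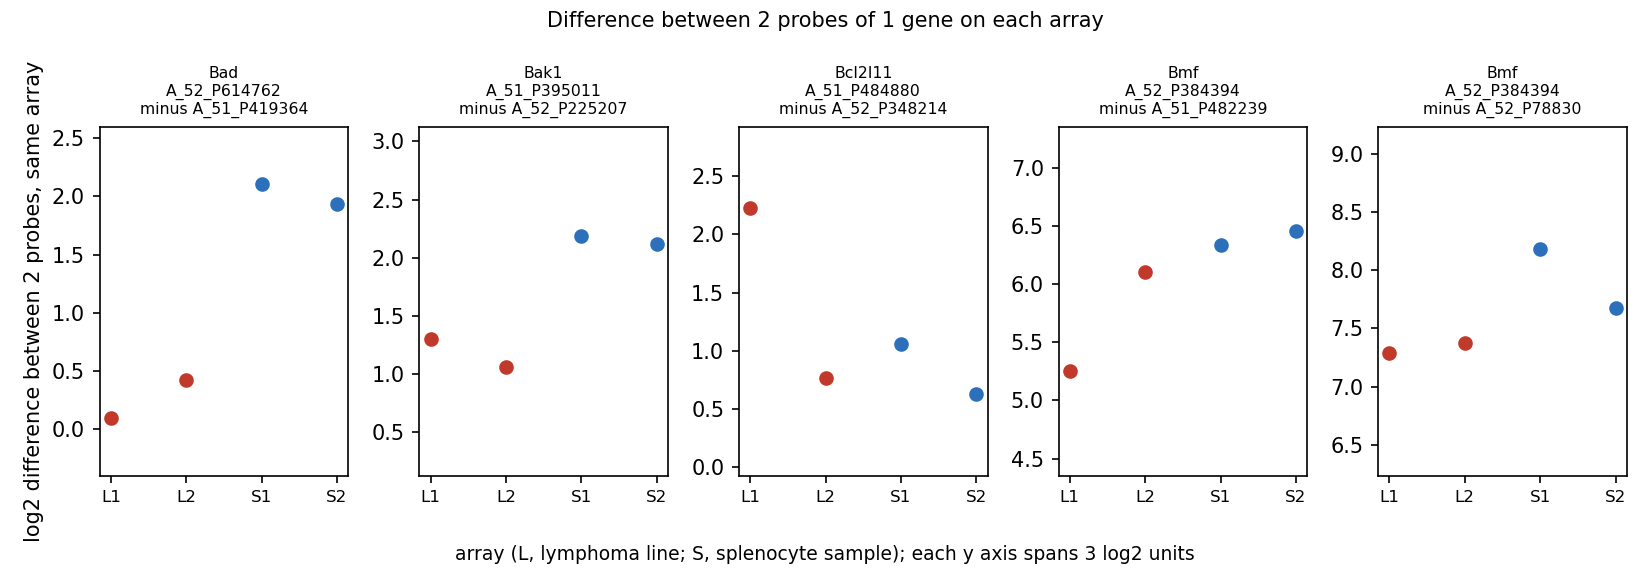
Log2 difference between 2 probes of 1 gene on the same array (y axis, each spanning 3 log2 units) for both lymphoma lines (L1, L2) and both splenocyte samples (S1, S2). For Bad and Bak1 both lines lie below both splenocyte samples, while for Bcl2l11 line 2 lies between them.

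The prosurvival relatives, the proteins that the members bind, moved in both directions. Of 12 tested probes 4 were higher in the lines, 6 were lower and 2 were not called, with a median of -0.49 against -0.0090 over all probes. Bcl2l1, which encodes BCL-XL, was higher at its 3 probes. At A_52_P148861 it read 0.978 and 1.38 in the lines, against 0.170 and 0.150 in the splenocyte samples, 7.28-fold higher (2.86 ± 0.23 SE, limma adjusted p = 0.000980). At A_52_P510877, not well above background in either splenocyte sample, it was at least 11.6-fold higher (limma adjusted p = 0.000775). For such dim groups the bound sets each array's lowest signal among probes well above background in place of the dim signal, unless the dim signal was higher.

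Bcl2, the founding member, was lower at its 3 probes, with differences of -2.18 ± 0.23, -1.42 ± 0.18 and -0.57 ± 0.14 SE and limma adjusted p of 0.00191, 0.00326 and 0.0219. At the probe with the widest gap it read 3.42 and 2.52 in the lines, against 12.0 and 14.9 in the splenocyte samples. Bcl2l2, which encodes BCL-W, was not well above background in either line and was at least 97.2-fold lower at A_51_P331318 and at least 12.4-fold lower at A_52_P44 (limma adjusted p = 0.000111 and 0.000153). Mcl1, the short-lived partner of NOXA, fell 2.62-fold at A_52_P93933, which read 11.9 and 11.8 in the lines against 31.5 and 30.9 in the splenocyte samples (-1.39 ± 0.14 SE, limma adjusted p = 0.00172). Its other probe was not called, at 35.7 and 35.8 in the lines against 46.2 and 48.8 in the splenocyte samples (-0.41, limma adjusted p = 0.0593). The A1 genes are near-identical copies whose signals can mix. Bcl2a1c rose by 0.74 (adjusted p = 0.0453), and Bcl2a1b was not called (0.60, adjusted p = 0.0554).

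Among other relatives that promote death, 1 of 6 tested probes was higher, 3 were lower and 2 were not called (median -0.41). Bnip3, a mitochondrial receptor for mitophagy, fell 9.94-fold (-3.31 ± 0.17 SE, limma adjusted p = 0.000405). Bcl2l13 rose 2.04-fold (1.03 ± 0.15 SE, limma adjusted p = 0.00507). Bcl2l14 fell 1.60-fold at 1 probe (limma adjusted p = 0.0475) and was not called at the other. Bok was not well above background on any array.

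Downstream of the mitochondria, 7 of 21 tested probes were higher in the lines, 4 were lower and 10 were not called (median 0.25). Cycs, cytochrome c itself, rose at its 3 probes, by 1.31 to 1.39. Aifm1, a flavoprotein released with it, rose 2.81-fold at 1 probe and was not called at the other (0.25, limma adjusted p = 0.245). Casp9, the initiator caspase of the apoptosome, read 2.29 and 2.06 in the lines, against 7.41 and 7.70 in the splenocyte samples, and fell 3.47-fold (limma adjusted p = 0.00111). The 3 probes of Apaf1, the scaffold of the apoptosome, were not called.

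Among genes known to control the members, 12 of 34 tested probes were higher, 10 were lower and 12 were not called (median 0.27). E2f1, a cell-cycle factor, rose 5.71-fold and 3.82-fold at its 2 probes. Trp73, a p53 relative, rose 6.39-fold at 1 probe and was not called at the other (0.19, limma adjusted p = 0.518). Jun, a factor of the stress-kinase pathway, fell 47.3-fold (-5.57 ± 0.14 SE, limma adjusted p = 0.000121). Ywhaq, a 14-3-3 protein, was at least 25.9-fold lower at A_52_P215249 but was not called at 2 brighter probes, with differences of 0.049 and -0.027. Trp53, the p53 gene, fell by 1.05 ± 0.27 SE at A_52_P781398 (limma adjusted p = 0.0247). Its other probe read 0.924 and 0.492 in the lines, against 0.619 and 0.674 in the splenocyte samples, and was not called (0.062, limma adjusted p = 0.885).

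The forkhead genes Foxo1 and Foxo3a, singled out after their values were seen because of the letters in capitals above, were lower in the lines at each of their 2 probes. Foxo1 read 10.9 and 12.3 in the lines, against 24.2 and 25.4 in the splenocyte samples, at A_51_P138044 (-1.09 ± 0.15 SE, limma adjusted p = 0.00414). Foxo3a fell by 2.11 ± 0.52 SE at the brighter probe (limma adjusted p = 0.0226). Whether these forkhead genes bear on Bcl2l11 or Bbc3 was not tested, and transcript level does not show where the proteins were or what they bound.

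**Figure D5:**
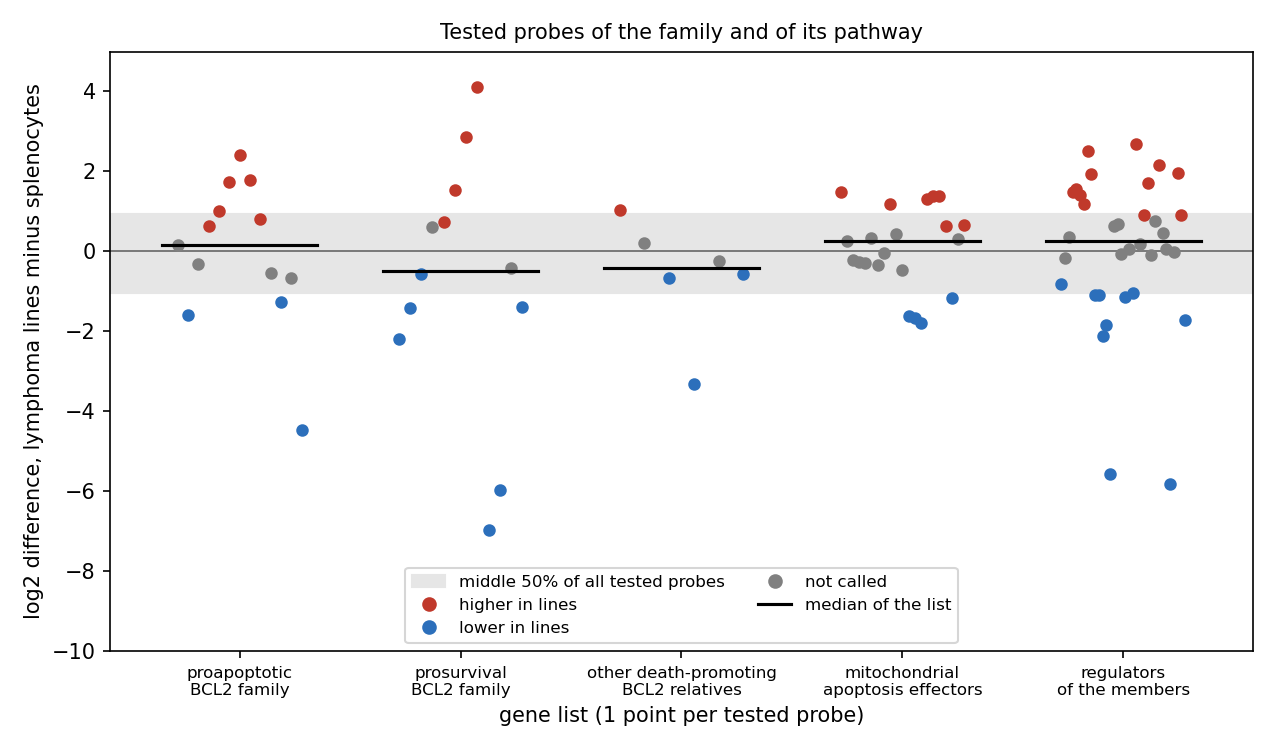
Log2 difference, lymphoma lines minus splenocytes (y axis), of each tested probe of the members and of 4 lists of related genes (x axis); black bars are list medians and the grey band holds the middle 50% of all tested probes. Each list holds called probes on both sides of 0.

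Cell identity was checked with marker lists. All 14 probes of the B-cell markers, such as Cd79a and Ptprc (the gene of B220), were well above background on all 4 arrays. None was higher in the lines and 10 were lower (median -1.64), and their summed relative signal was 387 and 372 in the lines, against 622 and 765 in the splenocyte samples. Without Ms4a1, which was not called at either probe, the sums were 144 and 152 in the lines, against 421 and 536 in the splenocyte samples. Summed NK-cell markers were 0.0750 and 0.0624 in the lines, against 0.845 and 0.739 in the splenocyte samples. All 5 tested NK probes were lower, with Gzma not well above background in either line and Ncr1 on no array. Erythroid markers summed to 3.15 and 1.28 in the lines, against 11.6 and 11.5 in the splenocyte samples, and all 6 tested probes were lower. For NK and erythroid markers the splenocyte samples thus gave more signal than the lines.

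Of 12 tested T-cell marker probes 3 were higher (Cd3g and 1 of 2 probes each of Cd4 and Cd8b1) and 6 were lower, with Thy1 and Cd8a not well above background in the lines. The higher Cd8b1 probe, A_52_P511269, is placed on chromosome 5, whereas the other, on chromosome 6, was lower. Which transcript A_52_P511269 reads is not settled here. The T-cell sums were 7.30 and 8.44 in the lines, against 4.23 and 3.79 in the splenocyte samples. Cd3g, a chain of the T-cell receptor complex, gave 5.09 and 6.15 of the lines' sums, against 0.289 and 0.258 in the splenocyte samples. Without it the sums turned round, to 2.21 and 2.29 in the lines, against 3.95 and 3.53 in the splenocyte samples. Of these, the Cd8b1 probe on chromosome 5 gave 1.82 and 1.84 in the lines, against 0.636 and 0.632 in the splenocyte samples. Of 11 tested myeloid probes 2 (both Emr1, the macrophage antigen F4/80) were higher and 8 were lower, with Lyz and S100a8 not well above background in the lines. The myeloid sums were 35.9 and 36.2 in the lines, against 12.1 and 7.54 in the splenocyte samples, and nearly all of the lines' sums was Emr1. Without Emr1 they were 0.165 and 0.154 in the lines, against 9.96 and 5.83 in the splenocyte samples. Plasma-cell markers summed to 22.9 and 29.3 in the lines, against 12.9 and 12.6 in the splenocyte samples, with 3 of 5 probes higher and 1 lower. Irf4, Prdm1 and Xbp1 were higher, Tnfrsf17 fell 13.2-fold, and Sdc1 was not called (-1.64, limma adjusted p = 0.0601). Irf4 gave 15.2 and 16.5 of the lines' sums. Without Irf4 the sums were 7.68 and 12.9 in the lines, against 3.78 and 5.10 in the splenocyte samples. Markers of stroma and endothelium summed to 0.489 and 0.472 in the lines, against 2.19 and 1.98 in the splenocyte samples, with 1 of 6 tested probes higher and 3 lower. The part of these cell types in the member differences was not tested. In bulk RNA of this kind, fewer cells of a type and less RNA per cell cannot be told apart.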

How the data were processed

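Total RNA of 4 samples was labelled with Cy3 and hybridised to single-colour Agilent arrays, per the labels. The authors deposited each array's scanner table of spot intensity, made with Agilent Feature Extraction 9.5.1.1 per the file headers (9.5 per the submitters' processing notes), in which the processed signal is background-subtracted. They also deposited a matrix of signal values on a linear intensity scale. Set against the scanner tables, its columns equalled the processed signal times 0.961 and 0.820 in the lines and 1 and 2.10 in the splenocyte samples, so each column had the same 75th percentile of 1078. Its direction and scale are thereby known, and it was used as an alternative.

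Here the deposited intensities (processed signals) were divided by their array's 75th percentile and put on a log2 scale. Spots of a probe were averaged, leaving out spots marked non-uniform or population outlier on any array. This affected 288 probes, of which 153 were lost. A probe was tested if it was well above background on at least 2 of the 4 arrays. limma 3.58.1 in R 4.3.3 (lmFit, eBayes, two-sided) compared lymphoma lines with splenocytes, with Benjamini-Hochberg adjustment over all tested probes. The residual degrees of freedom were 2 and the prior's 2.42. At an unadjusted p under 0.05, 18873 of 27405 probes passed. The fit was tested on simulated data.

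The members and lists were chosen with earlier results of these data known. All members and probes are named. From each related list the 2 largest called increases and decreases are named, and Bcl2, Bcl2l1, Mcl1 and Trp53 always. Any other gene of a list could be named with its call. Some genes of the lists are not reported here. No gene was named for a pattern like a member's, since 4 arrays in 2 groups cannot rank likeness. Deviations of same-numbered arrays correlated at 0.011, so the numbers did not pair them. Probe positions are those of the deposited annotation (mm8). Exon, intron and UTR placement was not analysed here. Promoter windows came from RefSeq. In all, 17 alternative settings were tried, 1 of them for the gene-level count only.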

Additional observations from a re-analysis of the deposited data

How the results depend on the processing

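Called member probes numbered 9 in the reported fit and 5 to 10 over the alternatives. Leaving out 1 array at a time gave 5 to 9 called member probes, with the 5 found without splenocyte replicate 2. The same fits called 4 to 7 member genes and 13162 to 17019 of all probes, and each assumes that the lone array varies like the other group's. Without the filter on dim probes 6 of 15 member probes were called (40.0%), against 39.5% of 41021 probes. The mean over the tested probes of a gene gave 5 called member genes, 4 higher and 1 lower. Bbc3, Pmaip1, Bcl2l11 at A_51_P484880 and Bad at A_52_P614762 were called in the same direction under every alternative run. Bax was too, in the settings that kept it. Bcl2l11 at A_52_P158527 was fitted with its marked spot kept, except where a marked spot was left out on its own array only. It was called higher in each of these fits. Over these alternatives Pmaip1 ranged from -4.92 to -4.03, Bbc3 from 1.60 to 2.14 and Bax from 0.87 to 1.41. The decrease at Bmf A_52_P384394 was lost in 5 settings (adjusted p from 0.0134 to 0.162), the increase at Bcl2l11 A_52_P348214 in 4 (0.00374 to 0.224), at Bak1 A_52_P225207 in 3 (0.00422 to 0.0963) and at Bid in 2 (0.00373 to 0.0931). The sign turned for Bad A_51_P419364 with normexp (-0.30) and without lymphoma replicate 2 (-0.10, in a range of -0.10 to 0.44 over the arrays left out), and for Bak1 A_51_P395011 with median centring (0.080); neither was called in any setting, and the cause was not tested.

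Median centring moved the median difference of all probes by 0.41 and normexp by -0.28. Quantile normalization moved it by 0.15 and taking the percentile only from probes well above background throughout moved it by -0.13. The share of calls that were higher was 64.0% with median centring, against 49.9% in the reported fit. The array number as a replicate block gave 10 member probes, 7 member genes and 16749 of all probes. The added call was Bmf A_52_P78830, at an adjusted p of 0.0351. A block for slide or scan was not run, since all arrays shared 1 slide and 1 scan time. Keeping a marked spot out only on its own array was an alternative chosen after seeing the data. With 2 arrays a group, probes near background, such as those of Bad and the dim Bmf probes, are the least precise.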
